A study of Homo sapiens with 30 samples.

Results

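CSF1, BDNF, ALPP, ALPG, PAG1, MYH15 and TMEM107 are 7 of the 38122 genes in an expression table of 3 established human cancer lines. They were selected on their measured response to acid: in earlier results of these data the level of each moved the same way with the pH of the medium in HCT116 (colon carcinoma), FaDu (squamous carcinoma of the hypopharynx) and SiHa (squamous carcinoma of the cervix). As the genes were chosen by the differences between pH 6.5 and pH 7.4, those differences are given as a description with their standard error (SE) and without a p-value. The rule set no minimum size of change.

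Each line was grown in medium set to pH 6.5 or to pH 7.4, and the cells at pH 6.5 had been held there for 1 month or longer. The 6 groups (HCT116 at pH 6.5 and at pH 7.4, FaDu at pH 6.5 and at pH 7.4, SiHa at pH 6.5 and at pH 7.4) held 5 RNA sequencing libraries each. All groups shared serum, glucose, glutamine, penicillin, streptomycin and the buffers HEPES and PIPES. Whether a group's libraries are separate cultures, and how many populations were adapted to pH 6.5, is not in the labels, so p-values measure only the spread between these libraries, which may be technical. Levels are the authors' normalised read counts, from libraries of 21.02 to 55.68 M reads. In RNA from whole cultures, fewer cells with a transcript and less transcript per cell cannot be told apart.

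Not all libraries matched their label. Genes restricted to 1 line showed the RNA of HCT116 in FaDu pH 7.4 replicates 2 to 5 and the RNA of SiHa in HCT116 pH 6.5 replicates 5, 6 and 7, and SiHa pH 7.4 replicates 6 and 7 stood apart by high VIM. The pH comparisons therefore used the other 21 libraries, called clean, in which another line reached at most 0.0650%. This left FaDu at pH 7.4 with 1 library (replicate 1), HCT116 at pH 6.5 with 2 (replicates 1 and 3) and SiHa at pH 7.4 with 3 (replicates 1, 4 and 5). These 3 SiHa libraries were not uniform: VIM and CDH2, markers of a mesenchymal state, summed to 2.04 to 177 in them, against 0 to 5.60 in SiHa at pH 6.5. Of 10 squamous markers, 9 in FaDu at pH 6.5 and 10 at pH 7.4 averaged 10 or more. In SiHa 5 at pH 6.5 and 6 at pH 7.4 did, with KRT13 and SPRR1B at 0 in all clean libraries, so the squamous label of SiHa was not borne out by them. In HCT116 8 of the 10 at pH 6.5 and 6 at pH 7.4 did too, so this cut alone does not separate the lines. The summed level of the 10 at pH 6.5 was 283611 to 450075 in FaDu, 6982 to 9783 in HCT116 and 1254 to 3337 in SiHa. Of 9 colon markers measured in HCT116, 5 at pH 6.5 and 6 at pH 7.4 averaged 10 or more, with CDX1 at 0.

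The 7 genes have different jobs. CSF1 (macrophage colony-stimulating factor, ENSG00000184371) is a secreted ligand that keeps macrophages alive through the receptor CSF1R, and BDNF (brain-derived neurotrophic factor, ENSG00000176697) is a secreted ligand of the receptor NTRK2. ALPP (placental alkaline phosphatase, ENSG00000163283) and ALPG (germ cell alkaline phosphatase, ENSG00000163286) are neighbouring, nearly identical genes for enzymes anchored on the outer cell surface, which are also made by some tumours. PAG1 (ENSG00000076641) is an adaptor in lipid rafts that brings the kinase CSK to Src family kinases, which CSK inhibits. MYH15 (ENSG00000144821) encodes a myosin heavy chain, and TMEM107 (ENSG00000179029) encodes a protein of the transition zone, the gate at the base of the primary cilium. The fluid around tumour cells is often acid, because they release lactate, protons and carbon dioxide.

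The promoter windows of 4 of the genes are shown for what genes that moved together share in sequence. They also show how alike ALPP and ALPG are at their start. Whether reads of ALPP and ALPG can be separated rests on the transcripts, not on these windows. Each window is from RefSeq, build GRCh38.p14, and spans 300 bases from upstream of the start of the gene to just past it, 5′ to 3′ on the strand of the gene. For ALPP (chr2:232378501-232378800, plus strand) and ALPG (chr2:232406594-232406893, plus strand), capitals mark bases that differ from the other gene in the alignment or have no partner there. For MYH15 (chr3:108510547-108510846, minus strand) capitals mark TATAAA, and for TMEM107 (chr17:8176331-8176630, minus strand) they mark GGGCGG.
ALPP: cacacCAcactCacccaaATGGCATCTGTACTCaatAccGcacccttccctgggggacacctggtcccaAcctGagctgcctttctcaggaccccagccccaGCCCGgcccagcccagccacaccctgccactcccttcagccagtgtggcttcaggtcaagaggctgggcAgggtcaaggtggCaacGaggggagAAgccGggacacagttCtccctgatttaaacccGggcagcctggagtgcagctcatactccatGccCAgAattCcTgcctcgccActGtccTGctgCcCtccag
ALPG: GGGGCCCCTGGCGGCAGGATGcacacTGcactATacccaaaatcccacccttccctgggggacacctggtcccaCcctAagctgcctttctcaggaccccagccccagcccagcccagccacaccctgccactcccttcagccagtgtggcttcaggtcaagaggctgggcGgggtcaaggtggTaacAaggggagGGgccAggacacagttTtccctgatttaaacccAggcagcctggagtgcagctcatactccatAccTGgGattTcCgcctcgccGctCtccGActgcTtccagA
MYH15: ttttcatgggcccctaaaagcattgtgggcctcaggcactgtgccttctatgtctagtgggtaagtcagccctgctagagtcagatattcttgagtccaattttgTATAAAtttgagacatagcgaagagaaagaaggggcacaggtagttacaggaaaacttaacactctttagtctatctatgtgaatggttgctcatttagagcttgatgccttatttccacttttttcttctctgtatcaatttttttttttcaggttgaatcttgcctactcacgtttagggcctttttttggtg
TMEM107: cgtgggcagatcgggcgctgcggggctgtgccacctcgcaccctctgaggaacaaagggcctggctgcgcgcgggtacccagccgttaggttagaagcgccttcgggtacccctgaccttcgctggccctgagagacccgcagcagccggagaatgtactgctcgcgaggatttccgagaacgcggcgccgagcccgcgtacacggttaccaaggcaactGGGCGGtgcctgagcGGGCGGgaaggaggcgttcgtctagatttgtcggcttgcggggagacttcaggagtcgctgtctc
The ALPP and ALPG windows were identical at 253 of 277 aligned bases (91.3%), and the longest coding transcripts at 2266 of 2442 (92.8%). Of the stretches of 100 bases in the ALPP transcript, 13.2% occurred without a mismatch in ALPG, so part of the reads could belong to either gene, which makes each of these 2 levels uncertain.

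Apart from the ALPP and ALPG pair the windows differed in base composition. Over all 35116 windows of the same length the median GC content was 58.7% and the median number of CpG pairs 14. The MYH15 window had 40% GC and 2 CpG pairs, those of ALPP and ALPG each 62.3% and 6, and that of TMEM107 66% and 32. Both strands were searched for TGACGT (the core of the cyclic AMP response element), TGANTCA (AP-1), CACGTG (E-box), TATAAA and GGGCGG (GC box), which occurred in 7.98%, 7.71%, 7.26%, 11.5% and 45.0% of all windows. The MYH15 window held TATAAA alone, the ALPP window none of the 5, the ALPG window 1 GC box and the TMEM107 window 2 GC boxes. BDNF has 5 windows, since it starts at several promoters: 2 of them held GC boxes, 1 held CACGTG and 1 held TGACGT, and gene-level values do not say which promoter was used. No motif was found in the windows of all 5 genes that have one, and a match is not evidence of binding.

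CSF1 was higher at pH 6.5 in each line. In HCT116 its normalised read counts were 443 and 258 at pH 6.5, against 41.3, 61.9, 88.6, 51.6 and 82.5 at pH 7.4. In FaDu they were 1548, 1509, 1671, 1685 and 1860.1 at pH 6.5, against 504 in the 1 clean library at pH 7.4. These groups did not overlap, and the log2 changes, pH 6.5 over pH 7.4, were 2.41 ± 0.32 in HCT116 and 1.71 ± 0.14 in FaDu (SE). SiHa differed in this: 372, 712, 429, 669 and 931 at pH 6.5 overlapped with 437, 252 and 243 at pH 7.4, and the log2 change was 0.98 ± 0.30. SiHa pH 7.4 replicates 6 and 7, which were not among the clean libraries, had 415 and 692, and with them the log2 change in SiHa was 0.64.

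BDNF was lower at pH 6.5 in each line, from very different starting levels. HCT116 had 1322 and 642 at pH 6.5, against 4730.3, 6200.4, 4453, 3188 and 4018 at pH 7.4. FaDu had 20.8, 7.63, 5.25, 8.36 and 4.42 at pH 6.5, against 91.2 at pH 7.4. SiHa had 237, 256, 297, 159 and 124 at pH 6.5, against 937, 399 and 461 at pH 7.4. No pair of groups overlapped, and the log2 changes were -2.26 ± 0.27 in HCT116, -3.35 ± 0.72 in FaDu and -1.44 ± 0.32 in SiHa. The FaDu value rests on few reads, 4 to 20 per library at pH 6.5, and a count of 0 would allow up to 1.90 to 5.01 normalised counts depending on the library. The antisense gene BDNF-AS, whose reads cannot be told apart from those of BDNF where they overlap unless strand was used, had at most 90.4 normalised counts in any library.

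ALPP and ALPG were lower at pH 6.5 in each line. ALPP in HCT116 was 12.6 and 11.4 at pH 6.5, against 316, 316, 164, 41.8 and 42.4 at pH 7.4. ALPP in FaDu was 106, 102, 45.5, 51.2 and 127 at pH 6.5, against 1174 at pH 7.4. ALPP in SiHa was 5505, 3008, 2816, 2266 and 1481 at pH 6.5, against 10756, 11534 and 11323 at pH 7.4. The pH groups of each line were apart, but in HCT116 at pH 7.4 replicates 6 and 7 were far below replicates 1 and 3. The log2 changes of ALPP were -3.27 ± 0.74 in HCT116, -3.86 ± 0.57 in FaDu and -2.03 ± 0.31 in SiHa.

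ALPG had 17.2 and 12.5 in HCT116 at pH 6.5, against 1166, 1107, 359, 78.6 and 146 at pH 7.4. FaDu had 33.3, 54.8, 29.7, 32.4 and 56.3 at pH 6.5, against 335 at pH 7.4. SiHa had 429.9, 215, 218, 178 and 113 at pH 6.5, against 785, 1069 and 969 at pH 7.4. ALPG showed the same split within HCT116 at pH 7.4 as ALPP, and its log2 changes were -4.49 ± 0.86, -3.04 ± 0.42 and -2.15 ± 0.33 in HCT116, FaDu and SiHa. Summing both genes gave -4.11 ± 0.82 in HCT116, -3.64 ± 0.49 in FaDu and -2.04 ± 0.31 in SiHa. The sum does not depend on which of the 2 genes a counted shared read was given to. Shared reads left out of both counts would be missing from it too.

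The ratio of ALPG to ALPP did not overlap between the clean libraries of the 3 lines. It was 1.10 and 1.36 in HCT116 at pH 6.5, against 1.88 to 3.69 at pH 7.4. It was 0.314 to 0.654 in FaDu at pH 6.5, against 0.285 at pH 7.4. In SiHa it was 0.0716 to 0.0787 at pH 6.5, against 0.0730 to 0.0927 at pH 7.4. The ratio is not corrected for the length of the genes and is compared between libraries only. In the FaDu pH 7.4 libraries with HCT116 RNA it was 2.48 to 3.15, within the range of HCT116 at pH 7.4. In HCT116 pH 6.5 replicates 5, 6 and 7, with SiHa RNA, it was 0.0923, 0.0795 and 0.110, the last above every clean SiHa library.

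**Figure D1:**
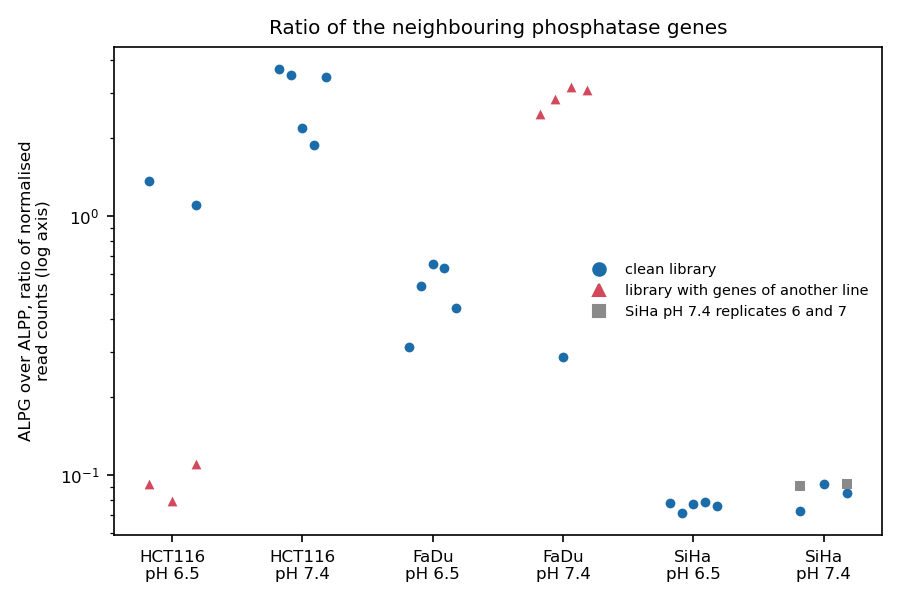
Ratio of the ALPG to the ALPP normalised read count (log axis) in each of the 30 libraries, by line and pH; circles are clean libraries, triangles libraries with genes of another line and squares SiHa pH 7.4 replicates 6 and 7. Clean HCT116 libraries lie between 1.10 and 3.69, clean FaDu libraries between 0.285 and 0.654 and clean SiHa libraries between 0.0716 and 0.0927.

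PAG1 was lower at pH 6.5 in each line. It had 59.5 and 52.5 in HCT116 at pH 6.5, against 162, 180.4, 223, 152 and 203 at pH 7.4. FaDu had 70.8, 52.7, 39.4, 59.5 and 45.3 at pH 6.5, against 234 at pH 7.4. SiHa had 10.8, 11.2, 21.5, 19.0 and 8.54 at pH 6.5, against 84.5, 91.9 and 117 at pH 7.4. The groups did not overlap, with log2 changes of -1.69 ± 0.22 in HCT116, -2.14 ± 0.34 in FaDu and -2.77 ± 0.32 in SiHa. The SiHa values at pH 6.5, from 8.54 to 21.5, rest on few reads, 8 to 24 per library.

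MYH15 was about 8 times lower at pH 6.5 in each line although its level differed widely between lines. HCT116 had 1037 and 1014 at pH 6.5, against 8560.3, 7273, 7940.0, 7847 and 8946 at pH 7.4. FaDu had 35.4, 26.4, 28.0, 41.8 and 30.9 at pH 6.5, against 241 at pH 7.4. SiHa had 27.0, 22.4, 17.0, 12.1 and 6.83 at pH 6.5, against 215, 146 and 82.3 at pH 7.4. The log2 changes, -2.98 ± 0.12, -2.87 ± 0.33 and -3.07 ± 0.43 in HCT116, FaDu and SiHa, differed from each other by less than the SE in SiHa, and the groups did not overlap. Folds of the fitted values, pH 7.4 over pH 6.5, were 7.88, 7.31 and 8.40. CIP2A and the pseudogene RPL13P8 overlap MYH15 in the annotation; CIP2A had no call with pH in any line (log2 change -0.29 ± 0.24 in HCT116, -0.22 ± 0.19 in FaDu and 0.29 ± 0.19 in SiHa).

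TMEM107 was higher at pH 6.5, with the smallest value in FaDu. It had 274 and 239.5 in HCT116 at pH 6.5, against 119.7, 111, 97.7, 103 and 156 at pH 7.4. SiHa had 633, 472, 437, 473 and 429.5 at pH 6.5, against 165, 230.2 and 213 at pH 7.4. FaDu had 355, 316, 379, 352 and 320.3 at pH 6.5, against 267 at pH 7.4. All groups were apart, with log2 changes of 1.14 ± 0.22 in HCT116, 1.26 ± 0.16 in SiHa and 0.36 ± 0.17 in FaDu. The small nucleolar RNA gene SNORD118 overlaps TMEM107 in the annotation. No level was found under its name, and how reads in the overlap were counted is not known.

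**Figure D2:**
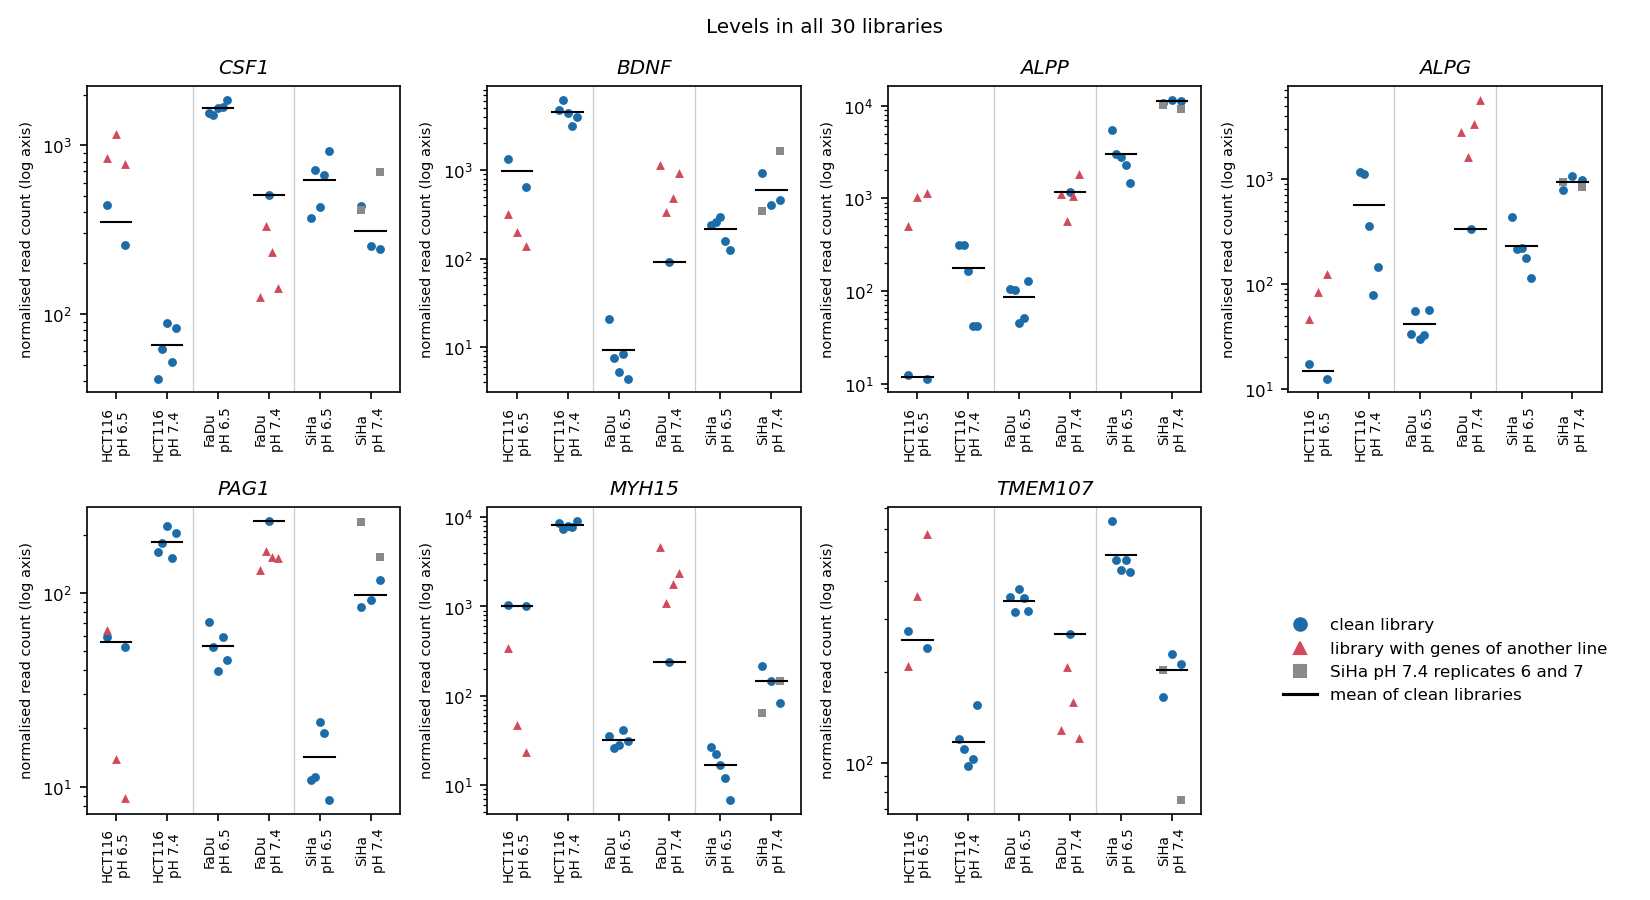
Normalised read count (log axis) of each gene in all 30 libraries, by line and pH; circles are clean libraries, triangles libraries with genes of another line, squares SiHa pH 7.4 replicates 6 and 7, and the bar is the mean of the clean libraries. BDNF, ALPP, ALPG, PAG1 and MYH15 lie lower at pH 6.5 in the clean libraries of each line, and CSF1 in SiHa is the case where clean groups overlap.

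Among 15888 genes tested in all 3 lines, 24 were called higher (0.151%) and 44 lower (0.277%) at pH 6.5 in each of them by limma at a Benjamini-Hochberg adjusted p under 0.05. CSF1 was among the 24, and BDNF, ALPP, ALPG, PAG1 and MYH15 were among the 44. TMEM107 was called in HCT116 and SiHa and not in FaDu, where its change was 0.36. Without the filter on low values BDNF was not called in FaDu, and with all libraries as labelled CSF1 was not called in SiHa and ALPP was not called in HCT116. Ordered by the smallest change over the lines, MYH15 was the first, ALPG the second, ALPP 3, PAG1 6 and BDNF 7 of the 44, and CSF1 4 of the 24. Among genes higher at pH 6.5 in all 3 lines, whether called or not, TMEM107 was number 246 of 2087 (13.1% of the genes tested). Another 2210 genes were lower in all 3 lines on the same count. The rule used these pH differences, so the calls and places of the 7 genes are a description only.

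By line, 7 of 7 were called in HCT116 (background 20.2% of 18885 genes), 6 of 7 in FaDu (7.36% of 19170) and 7 of 7 in SiHa (31.2% of 18555); as the rule used this contrast, nothing is read from these counts. The pH groups did not overlap for 7 of 7 in HCT116, 7 of 7 in FaDu and 6 of 7 in SiHa. Over the 15888 genes, in either direction, the shares were 35.4%, 56.2% and 36.0%. The rule used this contrast too, so nothing is read from the overlap counts either. The FaDu calls leaned on its few libraries: without pH 6.5 replicate 3 or replicate 4 they were MYH15 and CSF1 alone (74 and 66 genes called in all), and without replicate 2 or 5 BDNF and PAG1 were lost. Without pH 6.5 replicate 1 in HCT116, ALPP and TMEM107 were not called, and without replicate 3, ALPP and ALPG were not. CSF1 in SiHa was not called without pH 6.5 replicate 4 or 6 or without pH 7.4 replicate 4 or 5. In each of these the 7 directions stayed as given.

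**Figure D3:**
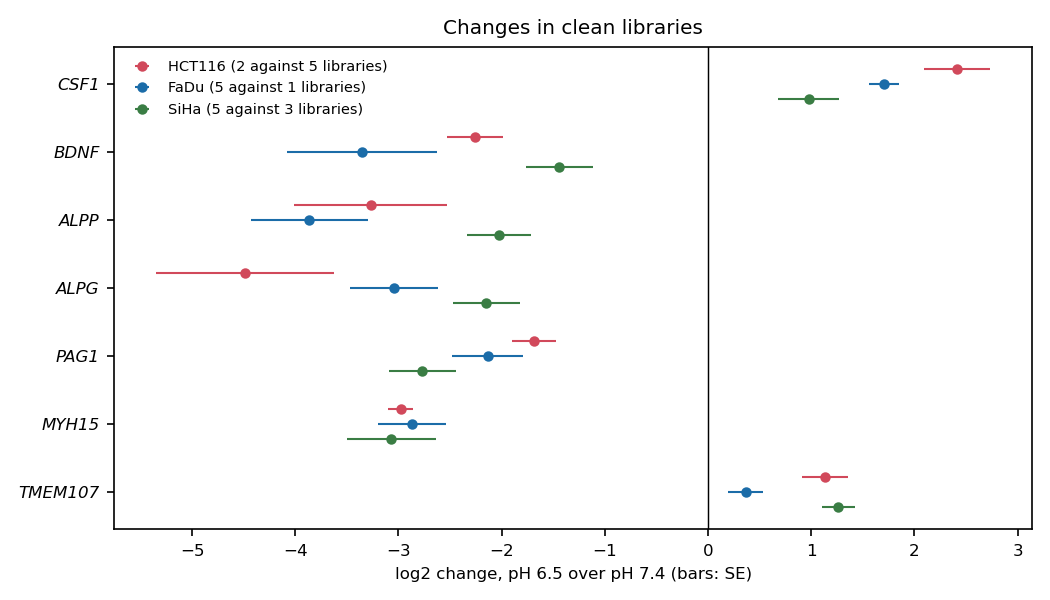
Log2 change, pH 6.5 over pH 7.4, of each gene in HCT116, FaDu and SiHa (points, bars: SE), from clean libraries. MYH15 lies near -3 in each line, and TMEM107 in FaDu lies closest to 0 at 0.36.

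How the lines differed at 1 pH was not used to choose the genes and was tested with limma over all genes. At pH 6.5 FaDu against SiHa (5 libraries each, all of them clean) called 74.1% of 19879 genes, and all 7 members. FaDu was lower in ALPP (log2 -5.09 ± 0.35, adjusted p = 3.24e-08), BDNF (-4.51 ± 0.37, adjusted p = 1.71e-07) and ALPG (-2.37 ± 0.32, adjusted p = 1.87e-05). TMEM107 was slightly lower in FaDu (-0.49 ± 0.12, adjusted p = 0.00236). FaDu was higher in CSF1 (1.48 ± 0.21, adjusted p = 3.00e-05), PAG1 (1.89 ± 0.28, adjusted p = 4.22e-05) and MYH15 (1.01 ± 0.33, adjusted p = 0.0135). MYH15 overlapped between these groups.

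At pH 6.5 HCT116 against FaDu (2 against 5 libraries; 63.9% of 20171 genes called) 6 of 7 passed. HCT116 was higher in BDNF (log2 6.68 ± 0.53, adjusted p = 7.33e-06 by limma) and MYH15 (4.96 ± 0.23, adjusted p = 2.74e-07 by limma). It was lower in ALPP (-2.64 ± 0.43, adjusted p = 0.000591), CSF1 (-2.28 ± 0.19, adjusted p = 1.01e-05), ALPG (-1.38 ± 0.34, adjusted p = 0.00674) and TMEM107 (-0.42 ± 0.14, adjusted p = 0.0272). PAG1 did not pass (0.09 ± 0.27, adjusted p = 0.789), and its groups overlapped. Without HCT116 replicate 3 the adjusted p was 0.0661 for ALPG and 0.109 for TMEM107, and without FaDu replicate 3 or 4 it was 0.0683 and 0.0615 for TMEM107. These comparisons share the FaDu libraries at pH 6.5 with the one against SiHa.

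At pH 7.4 HCT116 against SiHa (5 against 3 libraries; 73.4% of 20178 genes called) 6 of 7 passed. HCT116 was higher in MYH15 (log2 5.87 ± 0.23, adjusted p = 2.17e-09), BDNF (2.98 ± 0.27, adjusted p = 1.59e-06) and PAG1 (0.90 ± 0.18, adjusted p = 0.000857). It was lower in ALPP (-6.48 ± 0.65, adjusted p = 4.15e-06), CSF1 (-2.24 ± 0.29, adjusted p = 2.93e-05) and TMEM107 (-0.79 ± 0.19, adjusted p = 0.00309). ALPG did not pass (-1.41 ± 0.78, adjusted p = 0.123) and its groups overlapped, while the sum of ALPP and ALPG did (log2 -4.66 ± 0.74, adjusted p = 0.000156). Without HCT116 replicate 1 or 3, ALPG passed with adjusted p = 0.0347 and 0.0470. PAG1 and TMEM107 missed the threshold with SiHa replicates 6 and 7 included (adjusted p = 0.0729 and 0.108).

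The 7 libraries that were not clean were then set against what a mix of 2 lines would give. The share of each line was the median level of its restricted genes (24 for FaDu, 32 for HCT116 and 28 for SiHa). It was taken relative to FaDu pH 6.5, HCT116 pH 7.4 and SiHa pH 6.5. On this scale clean SiHa libraries at pH 7.4 reached 78.8% to 81.4%, and HCT116 pH 6.5 replicate 3 reached 88.1%. A share can thus also shift with pH, which was not corrected for. The expected level was the sum of each share times the clean mean at the labelled pH. FaDu pH 7.4 replicates 2, 3, 4 and 5 held 11.1%, 65.4%, 49.9% and 27.7% of the FaDu level and 77.5%, 29.2%, 40.3% and 58.2% of the HCT116 level. HCT116 pH 6.5 replicates 5, 6 and 7 held 50.2%, 1.78% and 0.516% of the HCT116 level and 35.9%, 103% and 100.4% of the SiHa level. Replicates 6 and 7 thus held nearly the whole set of SiHa genes, and the FaDu component rests on the 1 clean FaDu library at pH 7.4.

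In the FaDu libraries with HCT116 RNA, ALPG was above the level of both lines. Observed counts were 2785, 1633, 3335 and 5669 in FaDu pH 7.4 replicates 2 to 5, against 480.3, 386, 398 and 425 expected. The clean levels were 335 in FaDu and 571 in HCT116, and the highest clean library of any group had 1166. Log2 of observed over expected was 2.53, 2.08, 3.07 and 3.73, while 1.68%, 2.01%, 1.97% and 2.41% of all genes were more than 2-fold above their expected level in these libraries. ALPP was 1125, 577, 1059 and 1848, against 267, 819, 657 and 427 expected, with log2 differences of 2.07, -0.51, 0.69 and 2.11, so it was above the mix in replicates 2, 4 and 5 and below it in replicate 3. ALPG stayed above the mix in these libraries under every setting run for the mix, while ALPP in replicate 3 turned to 2.41 with FaDu taken at pH 6.5.

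With both lines at the labelled pH, BDNF was below the mix in the same libraries, with 1147, 339, 489 and 920.1 observed, against 3512, 1378, 1867 and 2654 expected. Its log2 differences were -1.61, -2.02, -1.93 and -1.53, but with HCT116 taken at pH 6.5 they were 0.57, -0.03, 0.15 and 0.62, so the direction depends on that pH. MYH15 was lower than the mix too, by 0.46, 1.19, 0.92 and 1.03 on the log2 scale in replicates 2 to 5, and turned with HCT116 taken at pH 6.5, to 2.48, 1.28, 1.75 and 1.82 above it. CSF1, PAG1 and TMEM107 were within 0.37 of the mix at the labelled pH. In these 4 libraries 3, 3, 2 and 4 of the 7 were more than 2-fold from the mix, against 5.41%, 5.54%, 5.74% and 6.40% of all genes.

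In the HCT116 libraries with SiHa RNA the phosphatases were below the mix. ALPP was 501, 1047 and 1134 in pH 6.5 replicates 5, 6 and 7, against 1088, 3106 and 3028 expected, with log2 differences of -1.12, -1.57 and -1.42. ALPG was 46.3, 83.3 and 125, against 90.3, 238 and 232 expected. The expected levels use means, while clean SiHa libraries at pH 6.5 ran from 1481 to 5505 for ALPP and from 113 to 429.9 for ALPG. ALPP in replicates 6 and 7 and ALPG in replicate 6 lay below these ranges, and ALPG in replicate 7 lay within. CSF1 lay above the mix, with 845, 1161 and 776 observed, against 399, 648 and 627 expected. Its clean SiHa libraries at pH 6.5 ran from 372 to 931, so replicate 7 lay within that range and replicate 6 above it. For MYH15, BDNF, PAG1 and TMEM107 the log2 differences were between -0.84 and 0.93. In these libraries 2, 2 and 1 of the 7 were more than 2-fold from the mix, against 9.22%, 8.08% and 6.82% of all genes.

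The pH of the SiHa component mattered for the 7 genes. With SiHa taken at pH 7.4 instead of the labelled pH 6.5, 4, 6 and 7 of the 7 were more than 2-fold from the mix in HCT116 pH 6.5 replicates 5, 6 and 7, against 13.0%, 21.5% and 20.8% of all genes. The median absolute log2 difference over the 7 was then 1.15, 1.84 and 2.64, against 0.93, 0.50 and 0.67 with SiHa at pH 6.5. For FaDu pH 7.4 replicates 2 to 5 it was 1.38, 0.38, 0.76 and 1.26 with HCT116 at pH 6.5, against 0.46, 0.51, 0.69 and 1.03 with HCT116 at the labelled pH 7.4, so over the 7 genes replicate 3 was closer with the other pH. Over all genes replicate 3 was not: 8.37% were more than 2-fold from the mix with HCT116 at pH 6.5, against 5.54% with HCT116 at pH 7.4. As the genes were chosen for a response to pH, this is a description of how the settings differ.

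**Figure D4:**
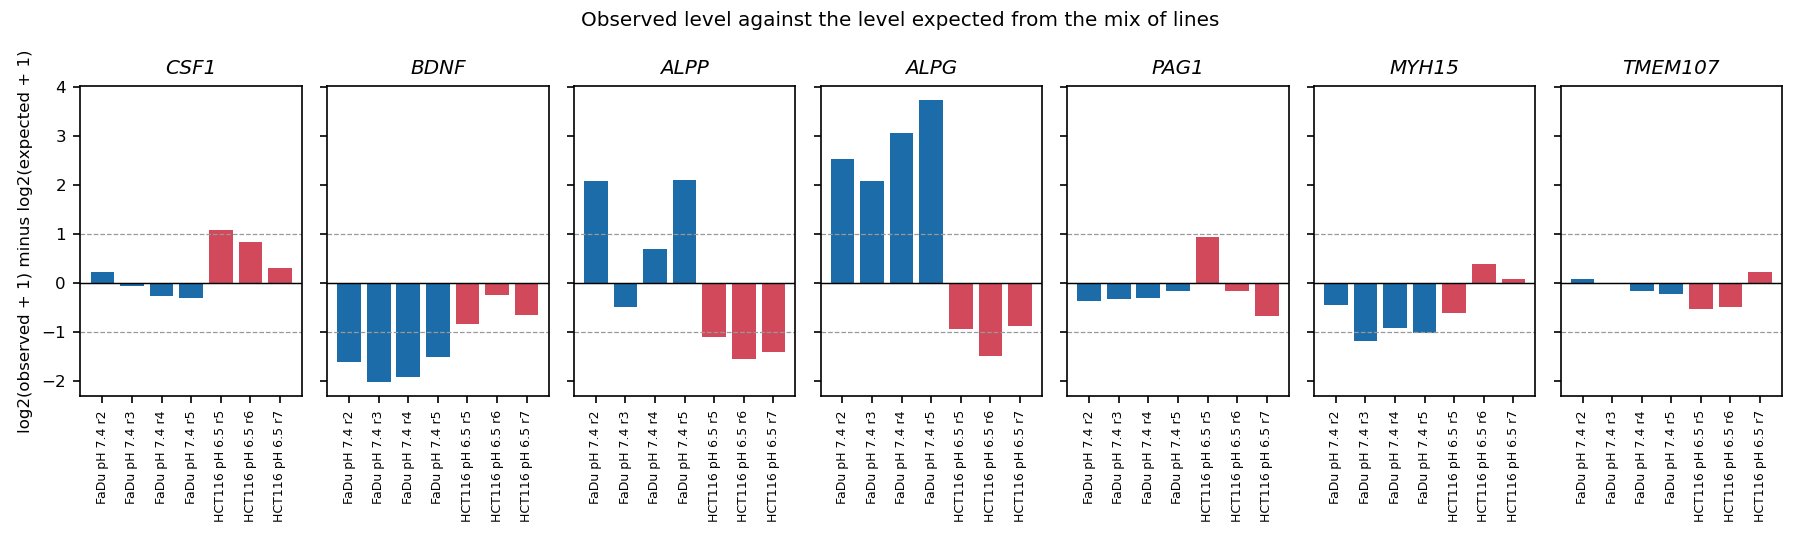
Log2 of observed minus expected level (pseudocount 1) of each gene in the 7 libraries that held genes of 2 lines (FaDu pH 7.4 replicates 2 to 5 in blue, HCT116 pH 6.5 replicates 5 to 7 in red; r marks the replicate); dashed lines mark a 2-fold difference. ALPG is above the mix in all 4 FaDu libraries and below it in the 3 HCT116 libraries, and BDNF is below it in all 7 at the labelled pH; with HCT116 taken at pH 6.5, BDNF in the FaDu libraries is between -0.03 and 0.62.

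The genes also followed each other after log2 values were centred on the mean of each line. Over the 21 clean libraries ALPP and ALPG had r = 0.97, MYH15 and PAG1 r = 0.91, and CSF1 ran opposite to ALPG (r = -0.86); the pH difference used to choose the genes enters each r. The genes most like MYH15 were BMAL1, a core gene of the circadian clock (r = 0.93), BCL9L and STK10. Nearest to ALPP after ALPG was the glucose transporter SLC2A1 (r = 0.93), and nearest to ALPG after ALPP were PERP and the water and glycerol channel AQP3 (both r = 0.93). BDNF was most like MCC (r = 0.93), ELL2 and SPOCK1, CSF1 most like METTL27 (r = 0.91), DNPH1 and LETMD1, PAG1 most like CTBP2 (r = 0.96), TC2N and PLS1, and TMEM107 most like POGLUT2 (r = 0.94), GPNMB and SMIM20.

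Some neighbouring genes on the chromosome were called with pH, each in 1 or 2 lines. CSF1's neighbour EPS8L3 fell at pH 6.5 in HCT116 (mean 13.7 at pH 6.5, against 291 at pH 7.4, log2 -4.55 ± 0.37, limma adjusted p = 6.49e-06), opposite to CSF1 itself. On the other side of CSF1, AHCYL1 rose in SiHa (0.62 ± 0.15, adjusted p = 0.0110 by limma), had 0.95 ± 0.13 in FaDu (adjusted p = 0.0167) and had -0.35 ± 0.13 in HCT116, where it did not pass. GSTM3, also near CSF1, rose in SiHa (0.47 ± 0.12, limma adjusted p = 0.0145).

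MYH15's neighbour HHLA2, a member of the B7 family of immune regulators, fell in HCT116 (mean 7.42 at pH 6.5, against 23.0 at pH 7.4, log2 -1.56 ± 0.41, limma adjusted p = 0.020), and RPL13P8 rose in SiHa (0.80 ± 0.21, adjusted p = 0.0161). KIF18A, a kinesin gene near BDNF, fell in HCT116 (-0.91 ± 0.20, limma adjusted p = 0.00720). PAG1's neighbour ZNF704 fell in HCT116 (-1.42 ± 0.13, limma adjusted p = 2.00e-05) and rose in SiHa (0.96 ± 0.26, adjusted p = 0.0179). AURKB, near TMEM107, rose in SiHa (1.15 ± 0.17, limma adjusted p = 0.000735). BDNF-AS did not pass in any line, with log2 changes of 0.42 ± 0.25 in HCT116, -0.92 ± 0.38 in FaDu and 0.58 ± 0.26 in SiHa. HHLA2 was not called without HCT116 pH 6.5 replicate 1 or pH 7.4 replicate 7, and KIF18A was not without pH 6.5 replicate 1. In SiHa, AHCYL1 and RPL13P8 were not called without pH 7.4 replicate 1, GSTM3 without replicate 4 and ZNF704 without replicate 5.

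Other genes of the same pathways were followed with lists set when earlier results of these data were known. Over all genes tested, 9.11% were called higher and 11.1% lower at pH 6.5 in HCT116, 4.24% and 3.12% in FaDu and 15.0% and 16.2% in SiHa. In FaDu, with 1 clean library at pH 7.4, 12 listed or neighbouring genes beside the members were called, and 1 of them (MATK) was called in each of 5 fits that left out 1 library at pH 6.5. TCTN2 and AHCYL1 were lost without replicate 3 or 4, and the others without any one of replicates 2 to 5, so FaDu is given by its values.

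In the ciliary transition zone, which TMEM107 belongs to, 2 of 27 genes were called higher (TMEM107 itself and B9D1) and 0 lower at pH 6.5 in HCT116, 4 and 0 in FaDu and 8 (TMEM107 included) and 5 in SiHa. TCTN2, another protein of that gate, rose in SiHa (log2 1.06 ± 0.14, limma adjusted p = 0.000509), and had 1.09 ± 0.14 in FaDu (adjusted p = 0.0148) and -0.39 ± 0.17 in HCT116. TMEM231 rose in SiHa (0.86 ± 0.12, adjusted p = 0.000548 by limma), had 0.62 ± 0.15 in FaDu (adjusted p = 0.0496) and had 0.63 ± 0.21 in HCT116, where it did not pass. B9D1 in HCT116 stayed called in 2 of 7 fits that left out 1 library. The medians of the list were 0.12 in HCT116, 0.25 in FaDu and 0.07 in SiHa, against -0.011, -0.013 and -0.012 over all genes.

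Among genes of neurotrophin signalling (BDNF included) 0 were higher and 3 lower of 18 tested in HCT116, 1 and 2 of 19 in FaDu and 0 and 8 of 15 in SiHa. SORT1, a sorting receptor that binds the BDNF precursor, fell in SiHa (log2 -1.45 ± 0.10, limma adjusted p = 1.38e-05) and had 0.66 ± 0.15 in FaDu (adjusted p = 0.0475). The BDNF receptor NTRK2 fell in SiHa (mean 2.95 at pH 6.5, against 27.9 at pH 7.4, limma adjusted p = 0.00136). The list medians were -0.37, 0.09 and -0.82 in HCT116, FaDu and SiHa.

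A further list held colony-stimulating factors, related ligands such as KITLG, and receptors of both. Of its genes 1 (CSF1 itself) was higher and 3 were lower of 8 tested in HCT116. In SiHa 1 was higher (CSF1) and 3 were lower (CSF2RA, KITLG and IL3RA) of 4 tested. In FaDu, with 1 clean library at pH 7.4 and 5 genes tested, CSF1 had log2 1.71 ± 0.14 and CSF2RA -0.93 ± 0.18. CSF2RA, a receptor subunit for a related factor, fell in HCT116, where it averaged 1.71 at pH 6.5, against 58.0 at pH 7.4 (limma adjusted p = 8.48e-06), and in SiHa, where it averaged 25.6 at pH 6.5, against 262 at pH 7.4 (adjusted p = 4.77e-05). In FaDu it averaged 173 at pH 6.5, against 329.5 at pH 7.4 (adjusted p = 0.0297). The receptor of CSF1, CSF1R, was at 30.9 normalised counts or below in every clean library and fell in HCT116 (mean 3.43 at pH 6.5, against 19.9 at pH 7.4, log2 -2.41 ± 0.51, limma adjusted p = 0.00588), where its ligand was higher. Without HCT116 pH 6.5 replicate 3 the CSF1R call was lost (adjusted p = 0.0598 by limma). List medians were 0.04, -0.09 and -0.84 in HCT116, FaDu and SiHa.

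Among PAG1 partners and Src family kinases, 1 was higher and 8 (PAG1 included) lower of 19 tested in HCT116, 3 and 2 of 20 in FaDu and 2 and 4 of 19 in SiHa. FLOT2, a scaffold of lipid rafts, rose in HCT116 (log2 0.55 ± 0.14, limma adjusted p = 0.0149) and SiHa (0.34 ± 0.08, adjusted p = 0.0120) and had 0.48 ± 0.11 in FaDu (adjusted p = 0.0475). EZR, which links membranes to actin, fell in HCT116 (-1.42 ± 0.16, adjusted p = 7.29e-05) and SiHa (-0.39 ± 0.08, adjusted p = 0.00543). The kinase FYN, which PAG1 can bind, fell in HCT116 (-0.98 ± 0.21, adjusted p = 0.00747 by limma), had -0.71 ± 0.15 in FaDu (adjusted p = 0.0372) and had -0.70 ± 0.27 in SiHa, where it did not pass. Without HCT116 pH 6.5 replicate 1 FLOT2 was not called there, and without replicate 3 FYN was not. MATK, a kinase related to CSK, averaged 164 at pH 6.5, against 4.39 at pH 7.4, in FaDu (log2 4.92 ± 0.28, limma adjusted p = 0.00243) and 0.179 at pH 6.5, against 11.5 at pH 7.4, in SiHa (adjusted p = 0.00160); it was singled out after its values were seen. In SiHa it was not called without pH 7.4 replicate 4. List medians were -0.39, -0.13 and -0.03 in HCT116, FaDu and SiHa.

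Of the myosin heavy chains, MYH15 and 1 other were lower in HCT116 (MYH14, log2 -0.72 ± 0.18, limma adjusted p = 0.0168, not called without HCT116 pH 6.5 replicate 3) and in SiHa (MYH10, -0.32 ± 0.08, adjusted p = 0.0109), MYH15 alone in FaDu, of 7 tested in each line, and 0 were higher. Of the alkaline phosphatases, ALPP and ALPG were the 2 called lower in each line. ALPL, the widely expressed member of that family, was tested in HCT116 (1.14 at pH 6.5, against 11.4 at pH 7.4, adjusted p = 0.0847 by limma) and FaDu (11.5 at pH 6.5, against 35.1 at pH 7.4, adjusted p = 0.123) and did not pass.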

How the data were processed

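RNA sequencing was done on 30 libraries of 3 cell lines at pH 6.5 or pH 7.4. Per the submitters' processing notes, the tools were bcl2fastq 2.20, FastQC, Trimmomatic 0.38, STAR 2.6.1d and DESeq2 1.22.2 with build GRCh37. The sources used here do not give the counting program, the strand setting or the annotation release. The signal values deposited by the authors were read counts divided by a size factor per library: 100% of values were whole multiples of 1 step within a tolerance of 0.01, so whole reads were recovered, on which edgeR called 3916 genes with pH in HCT116, 1368 in FaDu and 5877 in SiHa.

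The members, gene lists, markers and the set of 21 clean libraries were chosen with earlier results of these data known. The clean libraries are those that the selection of the members names, with SiHa pH 7.4 replicates 6 and 7 left out for high VIM. Replicate numbers were not used as pairs in the main fits. Deviations of same-numbered clean libraries correlated at 0.47, 0.02 and 0.17 in SiHa (replicates 1, 4 and 5). In HCT116 they correlated at 0.29 and 0.12 (replicates 1 and 3), and FaDu had too few clean libraries. Libraries of unlike number were not compared in this way, so pairing is not excluded. Each comparison was fitted on its own with limma 3.58.1 (R 4.3.3, trend) on log2 of the normalised count plus 1, for genes whose higher group averaged 10 or more, 2-sided, with Benjamini-Hochberg adjustment over all genes tested and calls under 0.05. The lone FaDu library at pH 7.4 was assumed to vary like those at pH 6.5. It is replicate 1, and FaDu pH 6.5 replicate 1 differed most from the others of its group. The mean chi-square per gene of its read counts against theirs was 66.6 to 142, against 7.86 to 28.1 for pairs without it. Whether a shared number marks a shared batch is not in the labels, so in FaDu such a difference cannot be fully told apart from pH. Fold changes on this scale understate those of low genes. Alternatives were pseudocounts of 0.5 and 5, no filter, TMM factors, edgeR 4.0.16 and DESeq2 1.42.0 on the recovered reads, 1 fit over all clean libraries, all libraries as labelled, a block on the replicate number, the sum of ALPP and ALPG, leaving out each library, and other pH values, restricted genes or least-squares shares for the mix. The fits were tested on simulated data. Genes named beside the members were, by rule, up to 4 called genes per list, the 3 genes with the highest r per member and the nearest neighbours. Promoter windows came from RefSeq on another build, GRCh38.p14, and were used for their sequence only.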

Additional observations from a re-analysis of the deposited data

Results flagged for a closer look

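BDNF in FaDu pH 6.5 replicate 1 (20.8 normalised counts) lay far above the other 4 libraries of its group, at 4.42 to 8.36, with a gap of 0.760 of the group's range. TMEM107 in SiHa pH 6.5 replicate 1 (633) lay far above the other 4, at 429.5 to 473, with a gap of 0.787 of the range. Both exceed Dixon's 95% critical value for 5 samples (0.710). They were 2 of 42 groups examined, and chance flags about 1 in 20.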

How the results depend on the processing

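With all libraries as labelled, ALPP at pH 6.5 in HCT116 turned to 0.34 on the log2 scale, and HCT116 against FaDu at pH 6.5 turned to 0.98 for ALPP and 0.027 for ALPG; those groups then hold libraries with SiHa RNA. Every other alternative run kept the 7 directions of the pH changes in each line. Genes called in FaDu were 812 higher and 599 lower: without a filter 479 were higher, DESeq2 gave 1399 and 1286, 1 fit over all clean libraries gave 1391 lower, and all libraries as labelled gave 4727 and 4388. HCT116 against FaDu at pH 6.5 had 6227 higher, and 4122 as labelled. Genes called the same way in all lines were 24 higher and 44 lower: 20 lower without a filter, 61 and 80 with DESeq2, 37 higher with 1 fit, and 242 and 236 as labelled. The cause of these shifts was not tested. Leaving out 1 library each gave 38 to 3430 higher and 28 to 3609 lower in FaDu, 850 to 2427 and 1348 to 2723 in HCT116, 1736 to 3088 and 1815 to 3385 in SiHa, and 3 to 73 and 3 to 129 in all lines; the ends in FaDu and in all lines came without FaDu pH 6.5 replicates 4 and 1. With the replicate block 1145 genes were higher in HCT116, against 1721, and 15 in all lines; CSF1 in SiHa was not called, MYH15 in FaDu against SiHa had adjusted p = 0.129 (limma), and ALPG and TMEM107 in HCT116 against FaDu had 0.0709 and 0.0939. No paired analysis was possible for the pH change in FaDu because its clean groups share 1 number. With 1 fit, ALPG and TMEM107 in HCT116 against FaDu had limma adjusted p = 0.0972 and 0.0508, and ALPG in HCT116 against SiHa 0.0494. Both lines at the other pH was a setting for the mix chosen after seeing the data. Depth limits BDNF in FaDu most, at 4 to 20 reads.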
